A study of Mus musculus with 6 samples.

Results

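The genes described here are the Cep genes, which encode proteins of the centrosome and of the base of the cilium, in the cochlea of mice whose inner hair cells (IHCs) overexpressed a potassium channel. They were taken by name: a gene counted as a member when its symbol was Cep followed by a number and an optional suffix. The rule took 36 of the 24411 gene symbols in the files. Of these, 35 are annotated as protein-coding and 1, Cep83os, as a long non-coding RNA that is read away from the start of Cep83. All 36 had enough counts to be tested, among 15303 genes tested in all.

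Cochlear sensory epithelium was taken at P9 from mice that overexpressed a potassium channel of the inward rectifier type, Kir2.1, and from littermate controls. The overexpressing group, Kir2.1-OE, carried 1 copy each of Otof rtTA and of Kir2.1 (Otof rtTA+/- with Kir2.1+/-), so that doxycycline (DOX) turned the channel on in cells where the Otof promoter is active, mainly IHCs. By the description of this model, such IHCs lose their own spontaneous action potentials but can still fire when neighbouring cells release ATP, so that their activity is reduced and not abolished. Controls carried Otof rtTA+/- with Kir2.1+/+. Both groups received DOX through drinking water at 0.5 mg/ml and were on a C57BL/6N background. Each group had 3 libraries, and each library was 1 pool of 8 cochleae from 4 mice, so that a pool is the replicate. The question was how RNA levels in the whole dissected tissue, which holds far more than IHCs, differed between Kir2.1-OE mice and controls.

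Between 35430940 and 41205047 reads were assigned to genes per library. Kcnj2, which encodes Kir2.1, had 2213 to 3813 normalized counts in the Kir2.1-OE pools and 226 to 236 in the control pools, so that every library followed its label. Normalized counts are read counts scaled to a common library size. The defining hair cell genes Otof, Slc17a8 and Pou4f3 were detected in both groups. Of 8 hair cell markers 3 were called higher (Otof, at a log2 fold change of 0.76, Myo7a, and Slc26a5, named after its values were seen, where 15.5% of all genes tested were) and none lower (5.08%), but with offsets for transcript length and GC content, described further on, only Slc26a5 was called and Otof had -0.09. The summed count of the 8 overlapped between the groups (35889 to 40125 in Kir2.1-OE, 35386 to 41085 in controls). That overlap rested on Ocm, a gene of outer hair cells with 16205 to 19837 counts against 19416 to 25755. Without it, a choice made after the values were seen, the other 7 summed to 19684 to 20288 against 14811 to 16204. Of these 7, Slc17a8 (log2 fold change 0.09), Pou4f3 (0.05) and Gfi1 (-0.25) were among those not called. Slc26a5 alone had 4834 to 6378 against 2909 to 4270, and Myo7a had a log2 fold change of 0.31 with the offsets. The pools also held other cells, and in such bulk tissue a change in the number of cells of a type cannot be told apart from a change in RNA per cell. Over all genes tested 15.5% were called higher and 5.08% lower, and with the offsets 6.45% and 3.4%, for comparison with each marker list below. Of 8 markers of spiral ganglion neurons 4 were called higher, also with the offsets, and the groups overlapped in the other 4. The highest were Nefh (2.52) and Nefm (1.94), and the lowest Syt1 (-0.13) and Prph (0.14). The summed count of the 8 was 23448 to 55718 in Kir2.1-OE pools against 12178 to 19157 in controls. Nefm had 5643 to 14761 against 1743 to 3771, and Nefh 4259 to 11120 against 813 to 1902. Of the cartilage and bone markers 2 of 5 tested were called higher, and 1 with the offsets. The summed count of that list was 644088 to 775596 against 287354 to 401841, of which Col2a1 alone had 520277 to 652926 against 256404 to 312641. With the offsets Col2a1 had 0.32 and was not called. Of the glial markers 2 of 6 were called higher, and 2 with the offsets (summed count 373307 to 490347 against 264687 to 338147). Of 5 red blood cell markers 3 were called lower (summed count 10855 to 13789 against 17918 to 44665), and 1 of the 5 with the offsets. For supporting cells 1 of 7 markers was higher and 1 lower (225619 to 244905 against 267353 to 383995), and 0 and 2 with the offsets. Tectb made up most of these sums, with 128742 to 149305 against 180813 to 282462. For fibrocytes 1 of 5 was higher, also with the offsets, and the sums overlapped. None of 6 macrophage markers was called (summed count 5148 to 5541 against 4737 to 4929). None of the 6 tested markers of cells with motile cilia was called, but 1 was higher with the offsets. Their sums overlapped (843 to 929 against 898 to 950), and Sntn of that list was at 0 in every library. The part of these cell types in the results below was not tested.

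The centrosome is built around a pair of centrioles and organizes the microtubules of a cell. In a dividing cell the centrioles duplicate and the centrosomes form the poles of the spindle. In a cell that has left the cycle the older centriole docks at the membrane as a basal body and grows a cilium: appendage proteins attach it, and a gated transition zone controls what enters. In the developing cochlea hair cells carry a kinocilium of this kind, which guides the orientation of the hair bundle and is later lost from cochlear hair cells, and supporting cells carry primary cilia. Mutations of several Cep genes cause ciliopathies of the retina, kidney, brain or ear.

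A gene was called when its fold change exceeded 1.5 and its Benjamini-Hochberg adjusted p in edgeR's quasi-likelihood test was below 0.05. SE is the standard error of a log2 fold change. By this rule 17 of the 36 Cep genes were higher in Kir2.1-OE mice, where 15.5% of all genes tested were. None of the 36 was called lower, where 5.08% of all genes were, and DESeq2's Wald test and limma-voom called none lower either. At an unadjusted p below 0.05, 3 were lower, where 27% of all genes tested were. With no threshold on the fold change 20 were higher and 3 lower (Cep44, Cep57 and Cep83os), against 27.3% and 23.5% of all genes. On the log2 scale the 36 genes had a median change of 0.44 and all genes tested one of 0.01, and 29 of the 36 values were positive. In 26 Cep genes the pools of the 2 groups did not overlap, as in 61.6% of all genes tested. In 22 of them all Kir2.1-OE pools lay above all control pools and in 4 all lay below, where 31.7% and 29.9% of all genes tested did so. By a stricter test, edgeR's glmTreat, which asks whether a change exceeds 0.6 on the log2 scale, 6 Cep genes were higher (Cep290, Cep350, Cep250, Cep162, Cep295 and Cep164), where 5.44% of all genes were higher and 0.372% lower. DESeq2's test of the same kind called 3 higher (3.81% of all genes) and none lower (0.196%), namely Cep290, Cep350 and Cep250. With upper quartile scaling 15 were higher (12.4%) and none lower (9.02%). This scaling changed the share of higher genes among all genes called from 75.2% to 57.9%. The plot of the log2 fold changes shows these genes by role.

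**Figure D1:**
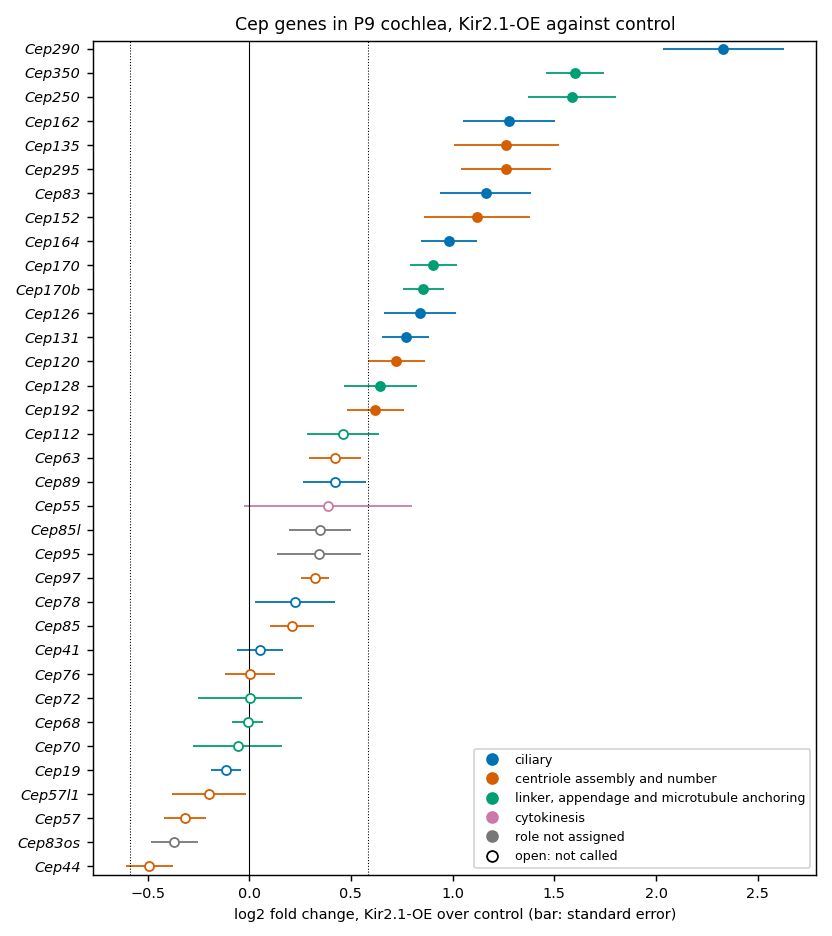
Log2 fold change of 35 of the Cep genes, Kir2.1-OE over control, with its SE, coloured by role. Filled points were called, open points were not, and dotted lines mark a 1.5-fold change. The 16 called genes shown lie to the right, from Cep192 at 0.62 to Cep290 at 2.33, and the lowest value is that of Cep44 at -0.49.

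Long transcripts were higher in Kir2.1-OE libraries throughout the transcriptome, and Cep genes are long. Their longest annotated transcripts had a median of 4806 nt, and those of all genes tested one of 3382 nt. Across the 36 genes the log2 fold change and transcript length had a Spearman's rho of 0.66 (0.56 across 15197 genes tested that had a length), a description over genes that share the same 6 libraries. Of 16 Cep genes with a transcript of 4000 nt or shorter 3 were called higher, and of 20 with a longer one 14 were. Within the class from 4000 to 8000 nt, 11 of 17 Cep genes were called higher, where 26.3% of all genes of that class were, and the medians were 0.79 and 0.29. Between 2000 and 4000 nt it was 3 of 15 against 6.70%, with medians of 0.22 and -0.06. All 3 Cep genes over 8000 nt were called, where 64.0% of such genes were. The only Cep gene under 2000 nt, Cep19, was not called.

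**Figure D2:**
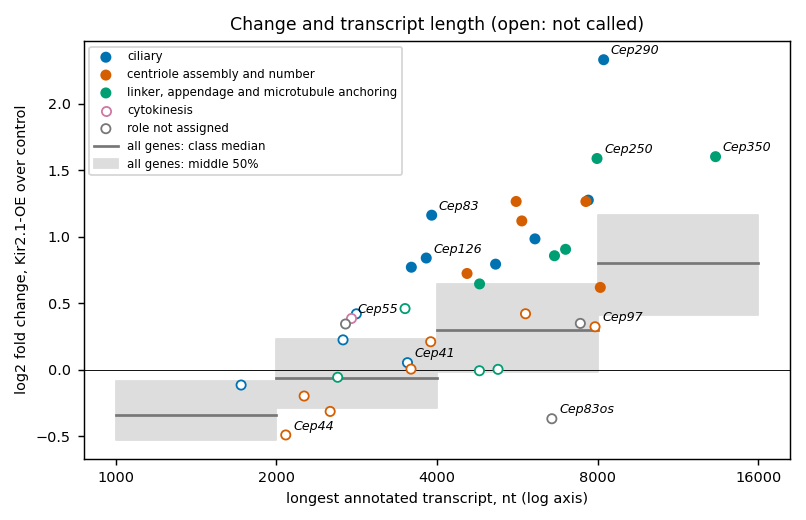
Log2 fold change of each Cep gene against the length of its longest annotated transcript on a log axis, coloured by role, with called genes filled. Grey lines and bands give the median and the middle 50% of all genes tested in 4 classes of length, and the bands of the outer classes are cut short for display. In the class from 4000 to 8000 nt 14 of 17 Cep genes lie above the class median of 0.29.

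When the trend of each library with transcript length and GC content entered the model as offsets, 8 Cep genes were called higher (6.45% of all genes tested) and 1, Cep83os, lower (3.4%). The 8 genes were Cep290, Cep83, Cep350, Cep135, Cep126, Cep295, Cep162 and Cep250, all among the 17. The median of the 36 genes was then 0.33, and that of all genes tested -0.04. The offsets left part of the length trend. All genes over 8000 nt, the class of Cep290, Cep350 and Cep192, still had a median of 0.21, and the shorter classes -0.08 to -0.02. Under both fits Cep290 had the highest value of the family, and Cep83 and Cep126 were slightly higher with the offsets. Cep250 went from 1.59 to 0.68 and Cep170b from 0.86 to -0.02, the largest shifts.

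**Figure D3:**
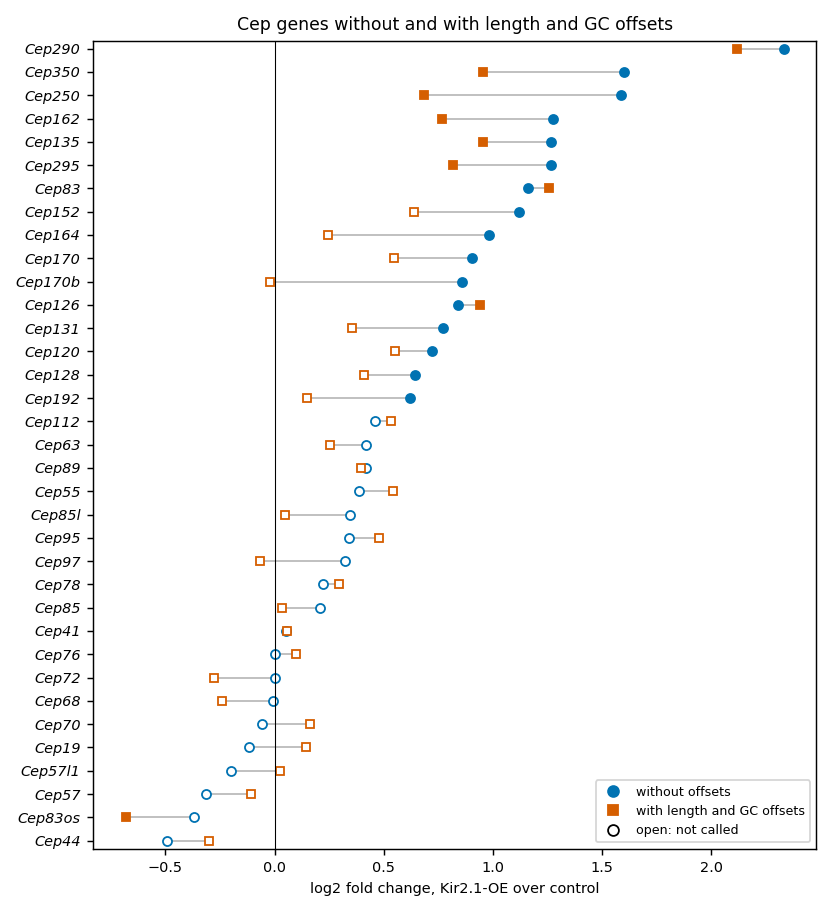
Log2 fold change of 35 of the Cep genes without (circles) and with (squares) offsets for transcript length and GC content. Filled symbols were called. The squares of 8 genes stay filled on the right, from Cep250 at 0.68 to Cep290 at 2.12, and that of Cep83os is filled on the left at -0.68.

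Of the 11 members with a mainly ciliary role, 7 were called higher (15.5% of all genes tested), among them Cep290, Cep162, Cep83, Cep164, Cep126 and Cep131. Over the 11 the median log2 fold change was 0.79. Cep290, Cep162, Cep83 and Cep126 were also called with the offsets (6.45% of all genes). The 4 that were not called were Cep89, Cep78, Cep41 and Cep19.

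Cep290 (ENSMUSG00000019971.10, mm10 chromosome 10 from 100487558 to 100574840, plus strand) encodes a gatekeeper of the transition zone that is mutated in Joubert syndrome and Leber congenital amaurosis. It held 251, 155 and 171 normalized counts in the Kir2.1-OE pools and 30.1, 54.5 and 29.5 in the controls, in the order of replicate numbers. The lowest Kir2.1-OE pool was well above the highest control pool. The difference was 5.03-fold (log2 fold change 2.33, SE 0.296, edgeR adjusted p = 3.30e-04). This value exceeded those of 99.9% of all genes tested, and it was 2.12 with the offsets (edgeR adjusted p = 0.00136). Per kilobase of transcript Cep290 was the least abundant Cep gene in controls, at 4.63 normalized counts. Exons of 4930430F08Rik, on the opposite strand, cover 7.58% of the exon bases of Cep290, and its log2 fold change was -0.49. The deposited estimates of Cep290 were not whole numbers in any of the 6 libraries, so that the abundance estimation assigned parts of reads to it.

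Cep162, which helps to assemble the transition zone from the end of the centriole, had 388, 262 and 255 normalized counts in Kir2.1-OE pools and 110, 160 and 103 in controls. The groups did not overlap. Its log2 fold change was 1.27 (SE 0.226, edgeR adjusted p = 0.00157), and 0.77 with the offsets.

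Cep164 lies on chromosome 9 from 45766946 to 45828691, on the minus strand, and encodes the distal appendage protein that recruits the kinase Ttbk2 at the start of ciliogenesis. Its counts were 1047, 1032 and 870 in Kir2.1-OE pools and 413, 592 and 485 in controls. Each Kir2.1-OE pool lay above each control pool, with means of 983 ± 98.4 and 497 ± 90.2 (SD, n = 3). The log2 fold change was 0.98 (SE 0.137, edgeR adjusted p = 4.93e-04), but 0.24 with the offsets, where it was not called (edgeR adjusted p = 0.129).

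Cep83 anchors the distal appendages, and it was higher in all Kir2.1-OE pools (385, 269 and 313 normalized counts) than in any control pool (102, 184 and 145). Its log2 fold change was 1.16 (SE 0.222, edgeR adjusted p = 0.00227), and 1.26 with the offsets. Cep83os had 490, 480 and 514 normalized counts in Kir2.1-OE pools and 743, 578 and 595 in controls. All its Kir2.1-OE values lay below all control values. Its log2 fold change was -0.37 (SE 0.115, edgeR adjusted p = 0.0234), which is under the 1.5-fold threshold, and -0.68 with the offsets, which passed it (edgeR adjusted p = 0.00305). The ratio of Cep83 to Cep83os within a library was 0.786, 0.560 and 0.609 in Kir2.1-OE pools and 0.138, 0.319 and 0.243 in controls. The mean log2 ratio was 1.55 higher in Kir2.1-OE pools. This ratio is a description of a pair picked for its opposite movement. An exact permutation test of its log2 values gave p = 0.1, the smallest that 3 against 3 pools allow. Because of how the pair was picked, no conclusion is drawn from that p-value.

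**Figure D4:**
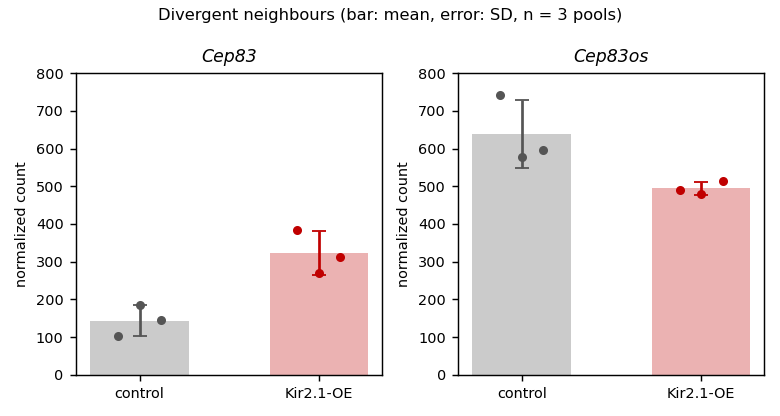
Normalized counts of Cep83 and Cep83os in each pool (points), with the mean (bar, from 0) and SD (error bar) of 3 pools per genotype. The Kir2.1-OE points of Cep83 lie above the control points, between 269 and 385, and those of Cep83os lie below them, between 480 and 514.

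The 2 genes are read in opposite directions from neighbouring starts on chromosome 10. In the GENCODE annotation 77 bases lie between the last base of Cep83os (minus strand, 94671025 to 94688576) and the first of Cep83 (plus strand, 94688654 to 94790853). In the RefSeq annotation the start sites of the pair lie 177 bases apart. The sequence at this divergent start is shown because the counts of the pair moved in opposite directions. It is given from RefSeq (GRCm38.p6, the assembly also called mm10) for chr10:94688540-94688653, plus strand, up to the first base of Cep83, with the bases between the genes in capitals.
Cep83 and Cep83os: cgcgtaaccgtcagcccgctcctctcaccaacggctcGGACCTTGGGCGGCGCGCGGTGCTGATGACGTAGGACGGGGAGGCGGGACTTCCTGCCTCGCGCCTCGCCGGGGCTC
Of these 114 bases 72.8% are G or C.

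Cep41, on chromosome 6 from 30653457 to 30693749, takes part in the glutamylation of ciliary tubulin and is mutated in Joubert syndrome. It was by far the most abundant Cep gene and was not called. It had 33296, 34434 and 27139 normalized counts in Kir2.1-OE pools and 29206, 27712 and 34583 in controls. The groups overlapped, with the lowest value in a Kir2.1-OE pool and the highest in a control pool, and the log2 fold change was 0.05 (SE 0.115, edgeR adjusted p = 0.729). Per kilobase it stood at 8660 normalized counts in controls, 73.2% of the sum over the 36 genes on that scale. Cep19, which recruits the GTPase Rabl2 to the basal body, followed with 521 and Cep57 with 310.

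The other ciliary members showed a graded pattern. Cep126, a protein of the centrosome and basal body, had 154, 127 and 138 normalized counts against 73.2, 78.1 and 82.4 (log2 fold change 0.84, SE 0.176), and 0.94 with the offsets. Cep131, of the centriolar satellites, had 834 to 901 against 445 to 597, a log2 fold change of 0.77. With the offsets it had 0.35 (edgeR adjusted p = 0.0241), under the fold threshold, and was not called.

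Cep89, another distal appendage gene, had a log2 fold change of 0.42 (edgeR adjusted p = 0.0479), under the fold threshold, and 0.40 with the offsets. Cep78, which is mutated in a cone-rod dystrophy with hearing loss, had 307, 237 and 368 normalized counts in Kir2.1-OE pools and 271, 305 and 204 in controls. These values overlapped (log2 fold change 0.22, SE 0.197, edgeR adjusted p = 0.372). For Cep19 the counts were 839, 834 and 803 against 895, 898 and 891. The groups did not overlap, but the log2 fold change of -0.12 (SE 0.0745) did not pass the test (edgeR adjusted p = 0.220). With the offsets its sign turned, to 0.14.

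Among the 12 members that act in the assembly or number of centrioles, 5 were called higher, against 15.5% of all genes (Cep135, Cep295, Cep152, Cep120 and Cep192), and their median on the log2 scale, over all 12, was 0.37. With the offsets 2 of the 12, Cep135 and Cep295, were called higher (6.45% of all genes). Cep63, Cep97, Cep85, Cep76, Cep57l1, Cep57 and Cep44 were not called.

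Cep135, a structural protein of the centriole, had 161, 130 and 110 normalized counts in Kir2.1-OE pools and 46.2, 75.4 and 44.8 in controls. The groups did not overlap (log2 fold change 1.26, SE 0.260, edgeR adjusted p = 0.00330), and the value was 0.96 with the offsets. Cep295, which is needed for a new centriole to become a centrosome, had 417, 254 and 266 normalized counts against 109, 154 and 126, again without overlap. Its log2 fold change was 1.26 (SE 0.222, edgeR adjusted p = 0.00149), and 0.82 with the offsets. Genes on the opposite strand overlap its exons: Gm16568 covers 10.9% of the exon bases, Gm48141 4.38%, Gm48142 3.36% and Taf1d 0.474%. The first 3 of these were not analysed here, and Taf1d had a log2 fold change of -0.33.

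Cep152 and Cep192 are scaffolds for the kinase Plk4, which starts centriole duplication, and Cep192 also recruits pericentriolar material in mitosis. Cep152 had 124, 110 and 82.5 normalized counts in Kir2.1-OE pools and 35.1, 52.7 and 58.0 in controls, which do not overlap. Its log2 fold change was 1.12 (SE 0.261, edgeR adjusted p = 0.00618). Cep192, on chromosome 18, had 392, 372 and 301 against 253, 223 and 219. Its groups also did not overlap, but its log2 fold change of 0.62 (SE 0.140, edgeR adjusted p = 0.00532) was only just above the threshold. It was not called without Kir2.1-OE replicate 1 (0.53), without Kir2.1-OE replicate 2 (0.56) or without control replicate 3 (0.58). With the offsets Cep152 had 0.64 and Cep192 had 0.15, and neither was called.

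Cep120, which promotes centriole elongation, had 1003 to 1322 normalized counts against 623 to 860 and a log2 fold change of 0.72. With the offsets it had 0.55 (edgeR adjusted p = 0.00924), under the fold threshold, and was not called. Cep97, which caps centrioles together with Ccp110 and holds back ciliogenesis, had little spread between pools, with 1605 to 1659 against 1238 to 1358. Its log2 fold change of 0.32 (edgeR adjusted p = 0.00439) was under the fold threshold and was -0.07 with the offsets.

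The lowest log2 fold change of all Cep genes was that of Cep44, which acts with Cep295 in the conversion of centrioles to centrosomes. Its counts were 259, 249 and 262 in Kir2.1-OE pools and 385, 339 and 358 in controls. The groups did not overlap, and its log2 fold change was -0.49 (SE 0.114, edgeR adjusted p = 0.00604), a fold change smaller than the threshold asks. Its longest transcript has 2083 nt, and its value was -0.30 with the offsets (edgeR adjusted p = 0.119).

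Cep57, a partner of Cep63 in the material around the centriole, had 659, 542 and 685 normalized counts in Kir2.1-OE pools and 774, 779 and 793 in controls. All Kir2.1-OE values were below all control values (log2 fold change -0.31, SE 0.103, edgeR adjusted p = 0.0292), again under the fold threshold. With the offsets it had -0.11 (edgeR adjusted p = 0.386). Its paralog Cep57l1 had 130, 98.9 and 121 against 118, 144 and 138, which overlap, and a log2 fold change of -0.20 (SE 0.181), which was 0.03 with the offsets. Cep63 itself had 0.42 (edgeR adjusted p = 0.0208), and 0.25 with the offsets. Exons of Anapc13 on the opposite strand cover 2.49% of the exon bases of Cep63, and Anapc13 was called lower, at -0.60.

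Members that link centrioles, form subdistal appendages or anchor microtubules numbered 9, of which 5 were called higher, against 15.5% of all genes (Cep350, Cep250, Cep170, Cep170b and Cep128), with a median of 0.64. Cep350 and Cep250 were called with the offsets (6.45% of all genes). Cep112, Cep72, Cep68 and Cep70 were not called.

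Cep350 (ENSMUSG00000033671.18, chromosome 1 from 155844964 to 155973255, minus strand) anchors microtubules at the centrosome and has the longest transcript of the family, 13307 nt. It had 1863, 1463 and 1332 normalized counts in Kir2.1-OE pools and 469, 592 and 473 in controls. The groups were far apart, with means of 1553 ± 277 and 511 ± 69.7 (SD, n = 3), a 3.04-fold difference. The log2 fold change was 1.60 (SE 0.142, edgeR adjusted p = 1.35e-04), and 0.96 with the offsets (edgeR adjusted p = 0.00108).

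Cep250, on chromosome 2 from 155956458 to 155998900, encodes C-Nap1, the protein that tethers the ends of paired centrioles, and its mutation causes a disorder of sight and hearing like Usher syndrome. Counts were 1041, 809 and 688 in Kir2.1-OE pools and 271, 369 and 203 in controls, without overlap. The log2 fold change was 1.59 (SE 0.217, edgeR adjusted p = 4.53e-04), and 0.68 with the offsets (edgeR adjusted p = 0.0128). Exons of 6430550D23Rik, on the opposite strand, cover 11.1% of the exon bases of Cep250, but that gene had mean normalized counts of only 3.74 in Kir2.1-OE and 4.94 in control pools.

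Cep68, the other protein of that linker in the family, had a log2 fold change of -0.01 (SE 0.0773, edgeR adjusted p = 0.937), with 984 to 1022 normalized counts against 960 to 1076. With the offsets it had -0.24 (edgeR adjusted p = 0.0393), under the fold threshold. The difference between Cep250 and Cep68, whose SEs are 0.217 and 0.0773, was not itself tested.

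The paralogs Cep170 and Cep170b, of the subdistal appendages and of microtubules, were both called higher. Cep170 had 1138, 972 and 1175 normalized counts in Kir2.1-OE pools and 522, 666 and 566 in controls, and Cep170b had 2095, 1964 and 1833 against 1151, 1165 and 937. Neither gene's groups overlapped. The log2 fold changes were 0.90 (SE 0.115) and 0.86 (SE 0.0987). With the offsets their values parted, at 0.55 (edgeR adjusted p = 0.00409) and -0.02 (edgeR adjusted p = 0.854), and neither was called. Cep170 missed only the fold threshold. The transcripts differ in GC content, at 43.1% for Cep170 and 60.7% for Cep170b.

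Cep128, of the subdistal appendages, had 144 to 178 normalized counts against 91.6 to 121 and a log2 fold change of 0.64 (SE 0.181). It was not called without Kir2.1-OE replicate 1 (0.56) or without control replicate 3 (0.56), or with the offsets (0.41). Cep112 had a log2 fold change of 0.46 and just missed the test (edgeR adjusted p = 0.0545), and it had 0.53 with the offsets. It was called when control replicate 2 was left out (0.61), as was Cep89 (0.60).

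The one member known mainly for cell division, Cep55, which directs the final cut between daughter cells, was among the least abundant. It had 21.6, 13.99 and 33.9 normalized counts in Kir2.1-OE pools and 23.1, 12.7 and 17.3 in controls. The pools overlapped, and the log2 fold change of 0.39 had a SE as large as itself (0.415, edgeR adjusted p = 0.463), so no difference was detected. It was -0.01 without Kir2.1-OE replicate 3.

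No role was assigned to Cep85l, Cep95 and Cep83os. Cep85l, the paralog of the centriole assembly gene Cep85, had 389, 413 and 331 normalized counts against 334, 242 and 316, which overlap, and a log2 fold change of 0.35 (SE 0.151, edgeR adjusted p = 0.0817), or 0.05 with the offsets. Cep85 had 374, 383 and 367 against 342, 328 and 301. Its groups did not overlap, and its log2 fold change was 0.21 (SE 0.108, edgeR adjusted p = 0.133), or 0.03 with the offsets. For Cep95 the value was 0.34 (SE 0.206). Near 0 lay Cep76 and Cep72, whose sign changed with the scaling, and Cep70, at -0.06.

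Most of the 17 called genes had the same highest pool in each group. Kir2.1-OE replicate 1 had the highest value of its group in 15 of the 17, and control replicate 2 the highest of its group in 14. The median log2 level of the 17 genes relative to the mean of the 6 libraries was 0.59, 0.43 and 0.40 in the Kir2.1-OE pools and -0.75, -0.31 and -0.55 in the controls. The 886 genes tested with a transcript over 8000 nt had medians of 0.49, 0.38 and 0.32 and of -0.41, -0.32 and -0.46. The lowest pool was not shared: among Kir2.1-OE pools it was replicate 2 in 8 genes and replicate 3 in 9, and among controls replicate 1 in 8 and replicate 3 in 9. By both medians Kir2.1-OE replicate 1 was the highest library and control replicate 2 the highest control. The 17 genes were picked as called higher, which fixed in advance that the groups part in their medians and sums. The summed count of the 17 genes was 10541 to 12619 in Kir2.1-OE pools and 5090 to 6412 in controls. That of the 19 genes not called was 35229 to 42374 and 35492 to 42141. Cep41 made up most of the latter sums, and the other 18 genes summed to 7940 to 8323 in Kir2.1-OE pools and 7558 to 7816 in controls, which do not overlap.

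**Figure D5:**
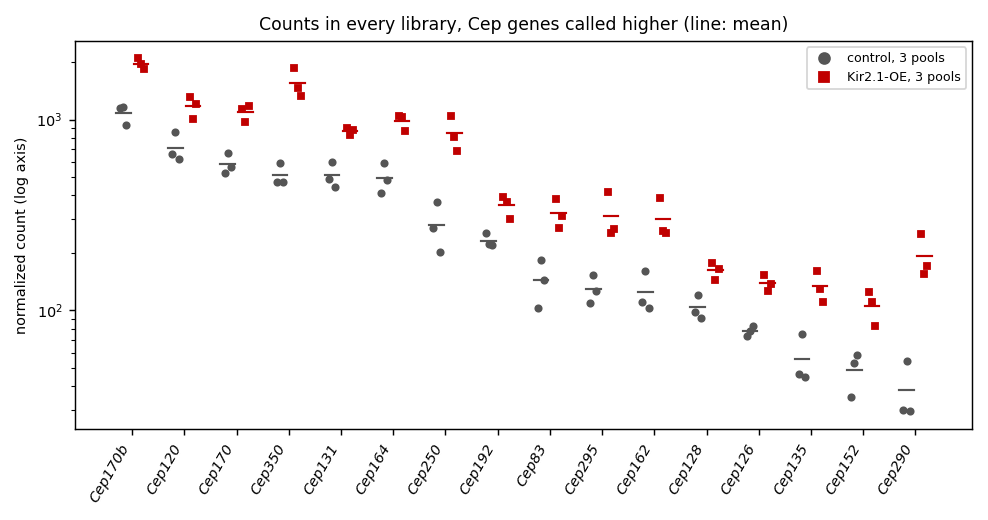
Normalized counts of 16 of the Cep genes called higher, in every library on a log axis, ordered by their control mean. Squares are Kir2.1-OE pools and circles control pools, with lines at the mean of 3 pools. In every gene shown the squares lie above the circles, with the widest gap in Cep290.

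The genes that work with Cep proteins were examined as lists. Of 35 other centrosome genes 11 were called higher (15.5% of all genes tested) and 2 lower (5.08%), with a median log2 fold change of 0.43. Akap9, a scaffold of the Golgi and the centrosome, had the highest value, 1.94 (SE 0.203). Cntrl, which encodes centriolin of the subdistal appendages, followed with 1.90 (SE 0.223). Their longest transcripts have 13123 and 7615 nt, and with the offsets the values were 1.39 and 1.30, both still called. The lowest were the small centrins Cetn2 (-0.69) and Cetn3 (-0.64), both called lower. With the offsets 8 of the 35 were higher (6.45% of all genes) and none lower (3.4%), so that Cetn2 and Cetn3 were no longer called.

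Partners of the ciliary members in the transition zone and the distal appendages showed a median near 0. Of 26 such genes 4 were called higher, 15.4% against 15.5% of all genes tested, and 2 lower (5.08% of all genes). The median was 0.05 on the log2 scale. The highest were the appendage gene Fbf1 (1.34) and the kinase gene Ttbk2 (1.17), and the lowest were B9d1 (-0.86) and Tmem216 (-0.80) of the transition zone. With the offsets 3 were higher (6.45% of all genes) and 1 lower (3.4%). The median was then -0.06, and B9d1 (-0.46) and Tmem216 (-0.55) were no longer called. Fbf1 (0.74) and Ttbk2 (0.76) still were. The longest transcript of B9d1 has 890 nt and that of Fbf1 5252 nt. No test compared the lists with each other.

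Of 26 genes of mitosis 7 were called higher, against 15.5% of all genes tested, and none lower, against 5.08% (0 at an unadjusted p below 0.05, against 27%), with a median log2 fold change of 0.44. The highest were Mki67, a marker of cycling cells, with 219, 121 and 148 normalized counts against 21.1, 41.8 and 21.4 (log2 fold change 2.52, SE 0.333), and the spindle motor gene Cenpe, with 125, 62.0 and 79.3 against 12.04, 33.6 and 14.3 (2.14). The lowest were Bub1b (-0.16) and Cdk1 (-0.13), neither of which passed the test (edgeR adjusted p = 0.496 and 0.631). With the offsets 6 of the 26 were called higher (6.45% of all genes), Mki67 at 1.93 and Cenpe at 1.74 among them.

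Promoter windows from RefSeq, 250 bases before and 50 after a start site, were found for 31 of the 36 genes (38 windows). Entries for Cep120, Cep192, Cep350 and Cep76 were not among them. Short strings bound by factors of ciliary and cell cycle genes were counted on both strands, and none of the strings contains another. GTTGCC, a core string of the RFX factors of ciliary genes, was in 23.7% of the 38 windows and in 12.7% of the windows of all genes tested. TTCCCGC, an E2F site, was in 26.3% and 7.67%, and TTTGAA, the cell cycle homology region of mitotic genes, in 28.9% and 11.9%. Of the 13 called genes with a window, 3 held the RFX string, 4 the E2F string and 4 the cell cycle string. Among all 31 Cep genes with a window 8, 9 and 9 held them. The windows of some genes overlap, and a string is a match of letters only.

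The promoters of Cep41, the most abundant member, and of Cep290, the one with the largest change, are shown as examples picked by their values. Whether any string goes with abundance or change was not tested. Both come from RefSeq on GRCm38.p6 and end at the base before the annotated gene, for Cep41 chr6:30693750-30693999 on the minus strand and for Cep290 chr10:100487332-100487557 on the plus strand. Capitals mark the strings above.
Cep41: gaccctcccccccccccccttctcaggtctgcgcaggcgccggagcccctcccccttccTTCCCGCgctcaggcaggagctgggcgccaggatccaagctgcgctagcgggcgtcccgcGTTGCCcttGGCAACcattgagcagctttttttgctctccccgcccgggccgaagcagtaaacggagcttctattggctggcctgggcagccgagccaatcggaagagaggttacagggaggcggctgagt
Cep290: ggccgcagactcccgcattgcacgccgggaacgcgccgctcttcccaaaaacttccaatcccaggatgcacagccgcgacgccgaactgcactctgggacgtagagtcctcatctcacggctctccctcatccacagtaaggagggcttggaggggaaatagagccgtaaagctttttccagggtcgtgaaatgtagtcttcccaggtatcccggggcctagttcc
In Cep41 an E2F string is followed by an RFX string and its reverse complement with 3 bases between them. This string and its reverse complement with 0 to 3 bases between them, an arrangement looked for after the values were seen, was in 53 of all 32851 promoter windows and, of the Cep genes, in Cep41 alone. The stretch of Cep290 holds none of the 3 strings.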

How the data were processed

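Poly(A) RNA of P9 mouse cochlea was sequenced in pairs of reads by the study, 3 pools of 4 mice per genotype. The authors mapped reads to mm10 with the nf-core RNA pipeline and deposited Salmon's expected counts per gene symbol, neither divided by length nor scaled for depth. Tool versions, annotation and strand setting are not given in the sources used here. Column headers and labels differ for 1 control library in its replicate number, and the label was used. Libraries held 35430940 to 41205047 assigned reads, so a gene with no read can hold up to 8.47e-06% of a library (3 counts, counting error only). Replicates differed by more than counting error (chi-square per degree of freedom 16.2 to 32.4).

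Counts were rounded, filtered with filterByExpr (15303 genes kept), scaled by TMM (factors 0.984 to 1.01) and compared in edgeR 4.0.16 under R 4.3.3 (quasi-likelihood, Benjamini-Hochberg over all genes). Promoter sequences are RefSeq (GRCm38.p6). Standard errors are the log2 fold change divided by the root of the F statistic. The model was tested on simulated data. Of 24411 symbols 23376 matched GENCODE vM21 by symbol, 669 by another symbol and 366 not. Length and GC offsets came from a loess trend (span 0.4) on the longest transcript. Alternatives were other scalings, filters and tests (DESeq2 1.42.0, limma 3.58.1), a replicate block, and each library left out. Members, lists and the rule for named genes (8 fixed names, the 5 highest and 5 lowest members, any called lower, the 2 most abundant, 3 paralog pairs, and the 2 highest and 2 lowest of each list) were chosen with earlier results of these data known. Replicate numbers do not pair the samples by any label. The values of 1 member are counted in the summaries but not reported here.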

Additional observations from a re-analysis of the deposited data

How the results depend on the processing

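With DESeq2's size factors, library size alone, both other filters, unrounded counts, DESeq2's Wald test and limma-voom the same 17 Cep genes were called higher and none lower. Of all genes tested 12.9% to 15.9% were called higher and 4.13% to 5.37% lower in these fits. Upper quartile scaling lost Cep128 and Cep192. Leaving out each library in turn gave 15 to 19 called higher and 0 lower. Over all genes tested the shares were 12.1% to 16.3% and 3.47% to 6.94%. The median log2 fold change of the 36 was 0.42 to 0.60. The highest count and median came without control replicate 2, and the lowest counts without Kir2.1-OE replicate 1 or control replicate 3. The share of all genes called higher was 16.3% in the first of these fits and 12.1% and 14.5% in the others. The replicate block lost or gained no call (17 higher, 0 lower, median 0.45). With it 14.5% of all genes tested were called higher and 4.69% lower. Same-numbered samples had correlations of -0.23 to -0.11, so the numbers were not taken as a pairing.

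The offsets for length and GC called 8 higher and 1 lower with a median of 0.33, also together with the replicate block (8, 1 and 0.33). Of all genes tested 6.45% were higher and 3.4% lower with the offsets, and 5.23% and 2.89% with the block added. The offsets lost 9 genes, among them Cep120, Cep128, Cep131, Cep152, Cep164, Cep170, Cep170b and Cep192, and the cause was not tested. Of the genes named here, Cep120, Cep131 and Cep170 missed only the fold threshold. Their edgeR adjusted p with the offsets was 0.00924, 0.0241 and 0.00409. DESeq2's test against 0.6 called 3 higher (3.81% of all genes) and glmTreat 6 (5.44%). The test without a fold threshold called 20 higher (27.3%) and 3 lower (23.5%).

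Some signs turned. With the offsets, and with offsets and replicate block, Cep170b had -0.020 and -0.018, Cep97 -0.066 and -0.064, Cep72 -0.28 and -0.26, Cep19 0.14 and 0.14, Cep57l1 0.025 and 0.023, and Cep70 0.16 and 0.18. Upper quartile scaling gave -0.038 for Cep41, -0.086 for Cep72 and -0.086 for Cep76. For Cep72 DESeq2's size factors gave -0.0079, library size alone -0.00037 and both DESeq2 tests -0.0077. For Cep76 DESeq2's size factors gave -0.0052 and both DESeq2 tests -0.0049. Leaving out 1 library gave -0.039 to 0.15 for Cep41, -0.0052 to 0.63 for Cep55, -0.044 to 0.037 for Cep68, -0.17 to 0.16 for Cep70, -0.15 to 0.21 for Cep72 and -0.073 to 0.076 for Cep76. None of these 6 genes was called in any of these fits. Of the called genes only Cep170b changed sign, with the offsets.

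With 3 pools per group and bulk tissue, changes in cell makeup cannot be told apart from changes per cell, and single-library values of genes such as Cep55 rest on few reads. The length trend moves with the genotype in every library, so a per-gene value depends on whether it is modelled.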
